A study of Homo sapiens with 6 samples.

Results

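The transforming growth factor beta (TGF-beta) ligands TGFB1, TGFB2 and TGFB3 and 6 receptors of the TGF-beta superfamily (TGFBR1, TGFBR2, TGFBR3, ACVR2A, ACVR2B and ACVRL1) were examined in the established colon cancer line HCT-15, of human origin and known to be deficient in DNA mismatch repair. Members were found by the RefSeq transcript in the name of each probe set, the group of probes that reports a transcript. All 9 genes were on the array with 1 probe set each, of 1259 probe sets and 927 genes with a symbol. The study compared 3 arrays of total RNA from untreated HCT-15 cells with 3 arrays from HCT-15 cells treated with 5-aza-2'-deoxycytidine, a nucleoside that traps DNA methyltransferases after its incorporation and so lowers methylation as cells divide. Both groups are the same single line without any genetic change named in the labels. Dose, duration and any vehicle for untreated cells were not used here, as the labels name none. The labels do not tie replicates to separate cultures, and the p-values therefore cover only the variation among these arrays, which may be technical.

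TGF-beta ligands are secreted in a latent form and, once released, bring together a type II receptor kinase (TGFBR2) and a type I receptor kinase (TGFBR1), which then phosphorylates SMAD proteins. TGFBR3, or betaglycan, is a membrane proteoglycan that holds ligand and presents it to TGFBR2. ACVR2A and ACVR2B are the type II receptors of activins and of several bone morphogenetic proteins, and ACVRL1, also called ALK1, is a type I receptor best known from endothelial cells. In colon epithelium this pathway restrains growth. In mismatch repair deficient colon tumours a run of adenines in the coding sequence of TGFBR2, and one in ACVR2A, often gains or loses bases. The arrays report the amount of a transcript and not its sequence, so the state of these runs was not analysed here.

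No array stood apart from the others of its group. Correlations over all probe sets were 0.998 within the untreated arrays, 0.997 to 0.999 within the treated arrays and 0.982 to 0.984 across the groups. The titles conflict in part with the other labels. Untreated replicate 3 is titled as treated, against the treatment entry, the source name and the opening letter of that title. In addition the word control stands in every title, those of the 3 treated arrays included, so it separates no groups and was not used. Untreated replicate 3 was used as untreated, and the members' calls are also given without it. Of the colon epithelial markers fixed for a check of the label, 6 were measured: LGALS4, MUC13, GALNT6, FUT2, FUT3 and MUC2. Their untreated means on the log2 scale were 9.54, 7.97, 8.66, 8.15, 6.39 and 5.57, in that order. EPCAM, CDH1 and the keratins had no matched probe set. Over all 927 genes, 19.7% rose and 17.6% fell. The epithelial list had 1 rise (MUC13) and 4 falls (LGALS4, GALNT6, FUT2 and FUT3) after treatment. Its summed level (log2 of the summed linear values) went from 10.71 to 10.88 in untreated arrays to 10.45 to 10.53 in treated arrays. Stromal and endothelial markers had 1 rise and 1 fall among 9 genes, with summed levels of 6.90 to 7.07 and 6.93 to 7.06. Leukocyte markers had 2 rises and 1 fall among 9 genes, with summed levels of 8.06 to 8.18 and 8.21 to 8.34. Their part in the results was not tested.

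Because the drug lowers methylation of CG dinucleotides, the promoter letters of the members that passed the test below are shown first. RefSeq promoter windows (GRCh38.p14) matched 8 of the 9 members, all but ACVRL1. The window used was the 250 bases before the most upstream start of each gene, written 5′ to 3′ on the strand of the gene, with every CG in capitals.
TGFB3 (chr14:75983012-75983261, minus strand): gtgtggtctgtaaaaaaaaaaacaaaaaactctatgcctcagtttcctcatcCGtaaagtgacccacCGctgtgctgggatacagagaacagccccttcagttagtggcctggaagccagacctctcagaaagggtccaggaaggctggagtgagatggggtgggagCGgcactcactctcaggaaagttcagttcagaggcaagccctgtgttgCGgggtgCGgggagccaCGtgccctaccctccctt
TGFBR2 (chr3:30606106-30606355, plus strand): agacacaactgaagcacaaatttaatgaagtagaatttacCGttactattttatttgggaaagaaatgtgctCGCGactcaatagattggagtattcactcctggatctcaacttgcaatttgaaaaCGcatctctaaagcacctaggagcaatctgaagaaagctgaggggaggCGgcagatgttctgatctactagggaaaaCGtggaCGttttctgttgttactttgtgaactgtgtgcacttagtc
TGFBR3 (chr1:91886152-91886401, minus strand): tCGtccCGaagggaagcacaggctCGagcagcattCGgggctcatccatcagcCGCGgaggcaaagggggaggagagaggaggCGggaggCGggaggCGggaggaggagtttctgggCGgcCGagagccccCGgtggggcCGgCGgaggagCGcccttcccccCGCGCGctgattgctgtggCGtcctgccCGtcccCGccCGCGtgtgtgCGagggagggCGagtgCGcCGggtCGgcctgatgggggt
ACVR2B (chr3:38453640-38453889, plus strand): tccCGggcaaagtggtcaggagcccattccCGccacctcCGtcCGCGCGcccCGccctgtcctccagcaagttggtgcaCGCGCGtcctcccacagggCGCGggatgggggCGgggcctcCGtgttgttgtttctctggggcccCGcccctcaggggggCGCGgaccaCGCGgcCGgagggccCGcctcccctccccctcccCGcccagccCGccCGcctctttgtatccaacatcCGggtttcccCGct

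TGFB3, the member with the largest fall, had 6 CG in this window, and TGFBR2, which also fell, had 7. TGFBR3, another gene that fell, had 28, and ACVR2B, which rose, had 26. Of the members that did not pass the test, TGFB1 had 21 CG, ACVR2A 14, TGFB2 11 and TGFBR1 0. The median over 27305 such windows was 10, and 93.6% held at least 1 CG. At least as many CG as in TGFB3 stood in 61.3% of windows, as in TGFBR2 in 58.3%, as in ACVR2B in 19.0% and as in TGFBR3 in 15.4%. The choice of start matters for genes with several. Over the 8 windows of TGFBR1 the count ran from 0 to 42, over the 2 of TGFB3 from 6 to 10 and over the 2 of TGFBR2 from 7 to 12. On both strands the GC box letters GGGCGG, which contain a CG, occurred 6 times in TGFB1, 5 times in ACVR2B and 2 times in TGFBR3, and 42.2% of all windows held them. The letters TATAAA were found once, in TGFB2 (11.2% of windows), and the cAMP response element letters TGACGTCA, which also contain a CG, in 0 of the 8 (1.75% of windows). In the other windows of TGFB3, TGFBR2 and TGFBR1 only CG was counted, so these motifs may stand there unseen. The windows were not matched to the transcripts that the probe sets report. These are matches of letters in the reference, and methylation was not measured on these arrays.

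Across the 9 members, 5 passed the test and 4 did not. Passing means an adjusted p under 0.05 in limma, where the Benjamini-Hochberg step ran over all 1259 probe sets. TGFB3, TGFBR2 and TGFBR3 were lower in treated cells, and ACVR2B and ACVRL1 were higher. The same 5 were the members with no overlap between the 3 treated and the 3 untreated arrays. Over the whole array 34.8% of probe sets passed and 46.1% did not overlap, and read against that background 5 of 9 is no result about the family as such. The median log2 change was -0.01 over the members and -0.01 over all probe sets. By role, the ligands had 1 fall among 3 genes, the TGF-beta receptors 2 falls among 3, and the activin type II receptors with ACVRL1 2 rises among 3. In RNA of whole cultures, fewer cells that express a gene and less RNA per cell cannot be told apart.

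**Figure D1:**
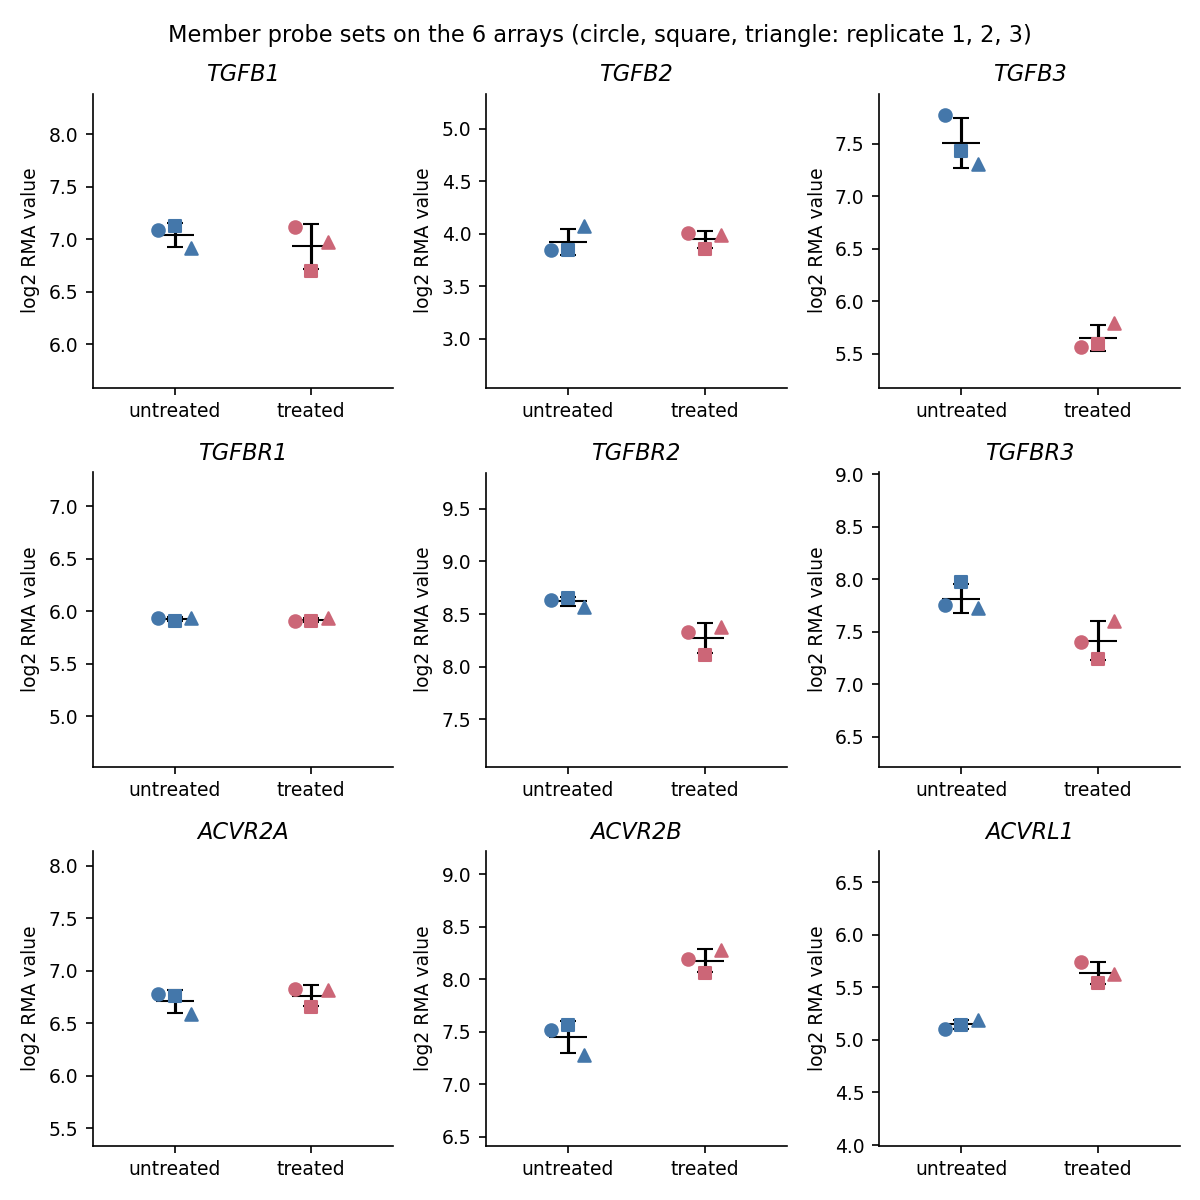
Log2 RMA values of the 9 member probe sets on each array, with replicates 1, 2 and 3 as circle, square and triangle and the mean with its SD (n = 3) in black. Every panel spans the same height, and the TGFB3 values of 7.31 to 7.77 in untreated cells and 5.56 to 5.79 in treated cells are the widest separation.

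Among the ligands, TGFB3, an isoform active in palate and lung development and in wound repair, carried the change. Its log2 values were 7.77, 7.43 and 7.31 in untreated replicates 1, 2 and 3 and 5.56, 5.59 and 5.79 in treated replicates 1, 2 and 3. All 3 treated arrays lay at least 1.52 below the lowest untreated array, while the spread within a group was 0.24 (SD, n = 3) in untreated cells. TGFB3 fell by 1.86 ± 0.12 (SE) on the log2 scale, a level 3.63-fold lower, with an adjusted p = 6.94e-07. The 95% interval of the log2 change was -2.12 to -1.60. Only 1 of the 1259 probe sets had a lower log2 change, as TGFB3 stood at rank 2 from the lowest.

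TGFB1, the most widely expressed of the ligands, had log2 values of 7.09, 7.12 and 6.91 in untreated cells and 7.12, 6.70 and 6.98 in treated cells. The groups overlapped, with treated replicate 2 the lowest array and treated replicates 1 and 3 within the untreated range. Its log2 change was -0.11 ± 0.11 (SE, adjusted p = 0.498), with a 95% interval from -0.35 to 0.13, that is from 0.786 to 1.09 times the untreated level. A fall of the size seen for TGFB3 lies outside that interval.

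TGFB2, the isoform that depends most on TGFBR3 for binding to TGFBR2, had log2 values of 3.85, 3.85 and 4.07 in untreated cells and 4.004, 3.86 and 3.99 in treated cells. All treated values lay inside the untreated range, and the log2 change was 0.03 ± 0.08 (SE, adjusted p = 0.871, 95% interval -0.16 to 0.21). The direction of this small difference turned to -0.04 when the arrays were centred on their medians and to -0.11 after quantile normalization. It also turned without untreated replicate 1 (-0.0109), without untreated replicate 2 (-0.0098) and without treated replicate 1 (-0.000778). The probe set was dim: 19.3% of probe sets were as dim or dimmer on average, and RMA compresses differences at such levels.

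The genes whose pattern over the 6 arrays came nearest to that of TGFB3 were SULT1C2, a cytosolic sulfotransferase, RPL28, a ribosomal protein, and FZD2, a Wnt receptor. Likeness was the mean absolute difference between the genes' deviations from their untreated means, which was 0.16 for SULT1C2, 0.20 for RPL28 and 0.24 for FZD2 on the log2 scale. SULT1C2 was 3.63-fold lower, RPL28 3.15-fold and FZD2 2.81-fold. These are near because few genes fell as far, and the 6 arrays hold only one contrast.

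**Figure D2:**
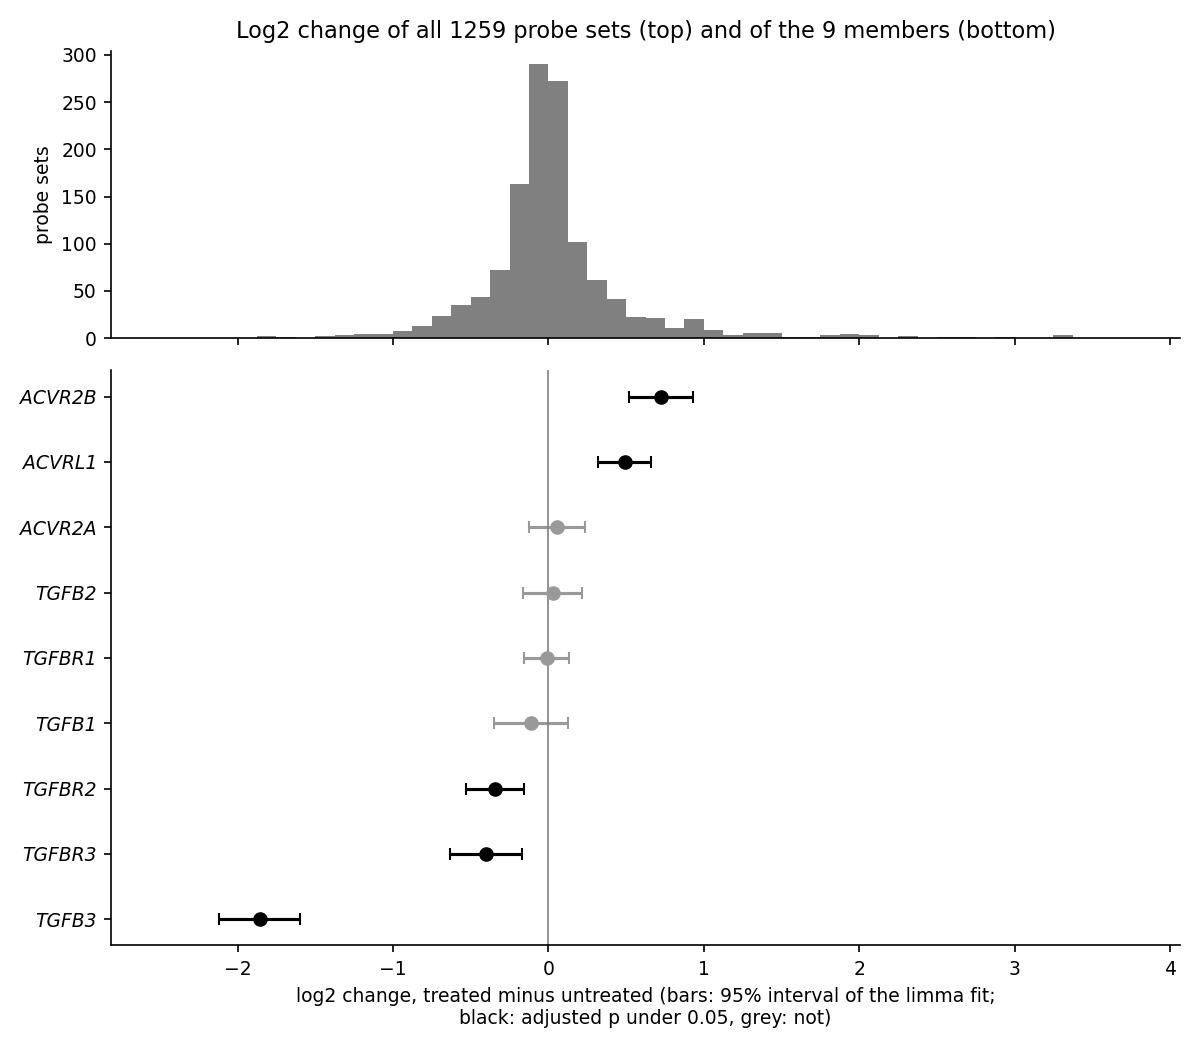
Distribution of the log2 change (treated minus untreated) of all 1259 probe sets, above the change of each member with its 95% interval from limma's fit. TGFB3 at -1.86 lies in the far left tail, while the intervals of TGFB1, TGFB2, TGFBR1 and ACVR2A include 0.

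The receptors of these ligands moved by smaller amounts. TGFBR2, the type II kinase that binds ligand, had log2 values of 8.64, 8.65 and 8.57 in untreated cells and 8.33, 8.11 and 8.38 in treated cells. The groups did not overlap, and the gap between them was 0.19. The spread (SD, n = 3) was 0.04 in untreated cells and 0.14 in treated cells. TGFBR2 fell by 0.34 ± 0.08 (SE) on the log2 scale, 1.27-fold, with an adjusted p = 0.00788. In an ordinary model without limma's shared variance its adjusted p was 0.0553, in a range from 0.00376 over the alternatives tried.

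TGFBR3, the betaglycan coreceptor, had log2 values of 7.75, 7.97 and 7.72 in untreated cells and 7.41, 7.24 and 7.60 in treated cells. The highest treated array, replicate 3, lay only 0.12 below the lowest untreated array. TGFBR3 fell by 0.40 ± 0.10 (SE) on the log2 scale, 1.32-fold (adjusted p = 0.0111). Without untreated replicate 2 the log2 change was -0.32 and the call was lost (adjusted p = 0.0551). The call was kept with each other array left out, most narrowly without treated replicate 2 (adjusted p = 0.0491). Over the alternatives the adjusted p ran from 0.00307 to 0.107, the latter in the ordinary model.

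TGFBR1, the type I kinase, had the tightest values of all members. They were 5.93, 5.90 and 5.94 in untreated cells and 5.90, 5.90 and 5.93 in treated cells, and the treated arrays all fell within the untreated range. The log2 change was -0.01 ± 0.07 (SE, adjusted p = 0.931), and the 95% interval allowed 0.898 to 1.1 times the untreated level. The error is that of limma's fit, which draws very small spreads toward the typical one.

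Of the receptors for other ligands, ACVR2B rose most. This activin type II receptor had log2 values of 7.52, 7.57 and 7.28 in untreated cells and 8.19, 8.06 and 8.28 in treated cells. Every treated array was at least 0.50 above the highest untreated array. The log2 change was 0.72 ± 0.09 (SE), a level 1.65-fold higher, with an adjusted p = 0.000128.

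Its close relative ACVR2A, which binds the same activins, had log2 values of 6.78, 6.76 and 6.59 in untreated cells and 6.83, 6.65 and 6.81 in treated cells. The groups overlapped and the log2 change was 0.06 ± 0.08 (SE, adjusted p = 0.685, 95% interval -0.13 to 0.24). The sign of this small difference turned after quantile normalization, after median centring and without untreated replicate 3. Taken within each array, ACVR2B minus ACVR2A was 0.69 to 0.80 in untreated cells and 1.37 to 1.47 in treated cells, a change of 0.67 (exact two-sided permutation p = 0.1, the smallest that 3 against 3 arrays can give). This pair was chosen after its values were seen. Values of different probe sets share no common scale, so only the change can be read, not the level of the difference.

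ACVRL1, the type I receptor for GDF2 (also named BMP9) and BMP10, had log2 values of 5.11, 5.15 and 5.19 in untreated cells and 5.75, 5.54 and 5.63 in treated cells. The groups were separated by 0.34, against a spread (SD, n = 3) of 0.04 in untreated cells and 0.10 in treated cells. The log2 change was 0.49 ± 0.08 (SE), 1.40-fold higher, with an adjusted p = 0.00046. Its ligands did not pass the test: GDF2 went from 5.55 to 5.39 (adjusted p = 0.116) and BMP10 from 4.76 to 4.78 (adjusted p = 0.908). GDF2 passed, as a fall, after quantile normalization and after median centring.

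Names of the probe sets for TGFBR1, ACVR2A, ACVR2B and ACVRL1 end in _s_at, which marks probes that match more than one transcript, possibly of another gene. The values of these 4 receptors are less certain for that reason. Names of the other 5 end in _at.

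Without untreated replicate 3, the array titled as treated, the same 5 members passed in the same directions. The log2 changes were then -1.96 for TGFB3, -0.37 for TGFBR2, -0.45 for TGFBR3, 0.64 for ACVR2B and 0.51 for ACVRL1, and the largest adjusted p among them was 0.0143.

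A single treated array was low in most of the family. Treated replicate 2 was the lowest of the treated arrays in 8 of the 9 members, all but TGFB3, and the highest in 0. Over all 1259 probe sets it was lowest in 33.4%. Untreated replicate 3 was the lowest untreated array in 6 of the 9 members and the lowest in 33.1% of all probe sets. The members share their arrays, so these counts describe 2 arrays and not 9 independent events. Without treated replicate 2 the log2 changes of TGFBR2 and TGFBR3 were -0.26 and -0.31, and both still passed.

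Setting ligands against receptors asks whether they changed by unequal amounts. It does not ask which gene had more RNA, as values of different probe sets share no common scale. Only the change in a difference can be read, not its level or sign. The log2 value of the second gene was subtracted from that of the first on each array, and the change in this difference between the groups was examined for 12 pairs of genes (3 pairs of ligands and 9 of a ligand and a TGF-beta receptor). In 9 of the 12 the treated and untreated differences did not overlap. All 9 hold TGFB3, TGFBR2 or TGFBR3, the members called as falls, and the pairs that overlapped hold none of these genes. The count thus largely restates those calls. Over all single probe sets 46.1% did not overlap, and the share over all pairs of genes was not counted. Each of these 9 had an exact two-sided permutation p = 0.1, the smallest possible with 3 against 3 arrays, or 0.133 after adjustment over the 12, so none could reach 0.05.

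TGFB3 accounted for 5 of the 9, as its 5 pairs all separated. The difference TGFB3 minus TGFBR2 was -1.26 to -0.86 in untreated arrays and -2.77 to -2.52 in treated arrays, a change of -1.51. For TGFB3 minus TGFBR3 the change was -1.46, and for TGFB3 minus TGFBR1 it was -1.85. Against its sister ligands, TGFB1 minus TGFB3 went from between -0.69 and -0.31 to between 1.11 and 1.55, a change of 1.75, and TGFB2 minus TGFB3 changed by 1.88.

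The other 4 were TGFB1 and TGFB2 against the receptors that fell. TGFB1 minus TGFBR2 changed by 0.23 and TGFB1 minus TGFBR3 by 0.29, while TGFB2 minus TGFBR2 changed by 0.37 and TGFB2 minus TGFBR3 by 0.43. After quantile normalization the differences of TGFB1 and TGFB2 from TGFBR3 overlapped between the groups, and TGFB2 minus TGFBR2 was 0.18. The pairs that overlapped were TGFB1 minus TGFB2 (-0.14, exact permutation p = 0.5), TGFB1 minus TGFBR1 (-0.10, p = 0.6 in the same exact test) and TGFB2 minus TGFBR1 (0.04, exact permutation p = 0.7).

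**Figure D3:**
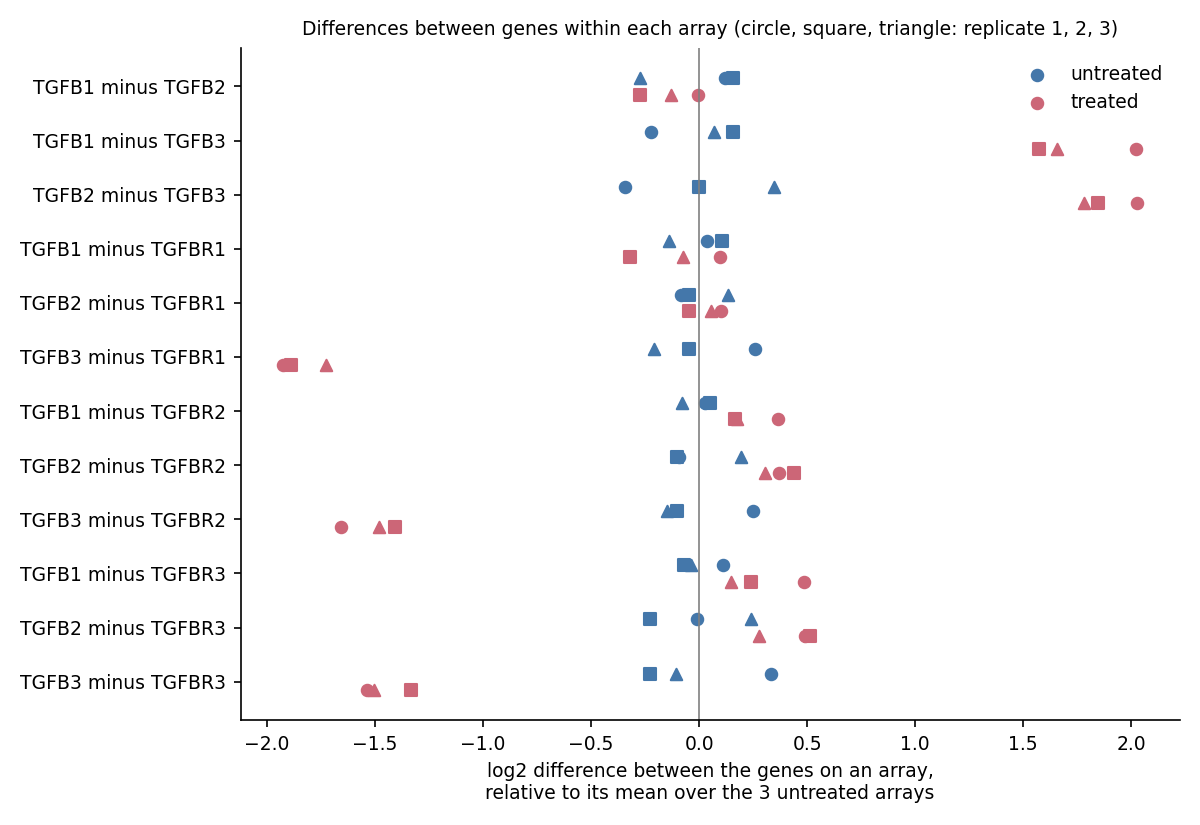
Difference in log2 value between 2 genes on each array, relative to its mean over the untreated arrays, for the 12 pairs, with replicates as circle, square and triangle. The 5 pairs with TGFB3 change by -1.46, -1.51, -1.85, 1.75 and 1.88, and no other pair by more than 0.43.

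Around the members, the pathway genes on the array were read from lists of other receptors, other ligands, extracellular regulators, SMAD proteins and response genes. By gene, with the probe set of the highest mean standing for each, 19.7% of the 927 genes rose and 17.6% fell. None of the 6 other superfamily receptors measured passed the test, with 0 rises and 0 falls in limma, 1 gene at an unadjusted p under 0.05 (ACVR1) and a median log2 change of 0.04. ACVR1, a type I receptor of activins and bone morphogenetic proteins, went from 6.08 to 6.43 (adjusted p = 0.0577) and passed with an intensity trend, with array weights and without untreated replicate 2. The ordinary model also called 0 of the 6. ACVR1B, the type I partner of the activin type II receptors, went from 8.32 to 8.46 (adjusted p = 0.179) and passed after quantile normalization. BMPR2, the bone morphogenetic protein type II receptor, went from 7.50 to 7.59 (adjusted p = 0.523). Among the SMAD proteins and receptor regulators, 1 gene was measured, TGFBRAP1, which binds TGF-beta receptors, and it went from 6.60 to 6.46 (adjusted p = 0.458).

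Of 31 other ligands listed, 19 were measured, of which 6 rose and 1 fell, and the median log2 change was 0.02 against -0.00355 over all genes. BMP7 was 9.98-fold higher (adjusted p = 5.61e-08) and GDF15, a stress-induced cytokine, 1.97-fold (adjusted p = 1.55e-06). INHBB, which encodes the subunit of activin B and so makes a ligand of ACVR2A and ACVR2B, rose by 1.34 on the log2 scale, 2.54-fold (adjusted p = 1.76e-06), and was singled out after its values were seen. INHBA, the subunit of activin A, went from 3.29 to 3.19 (adjusted p = 0.47). BMP8A, BMP6 and BMP2 were the other rises, by 0.73, 0.44 and 0.28 on the log2 scale, and BMP8B fell by 0.40. BMP6 (3.98 to 4.42) and BMP2 (3.21 to 3.48) were dim. With the dimmest probe sets left out, neither was kept and the rises numbered 4. BMP2 missed the threshold without untreated replicate 2 and without treated replicate 2, and BMP8B missed it without treated replicate 1. The list takes genes by name, and BMP1 in it encodes a protease.

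Among 7 extracellular regulators measured 2 rose and 0 fell. Rises numbered 1 in the ordinary model, where BGN missed the threshold, and falls 0 there and at an unadjusted p under 0.05. FST, the activin-binding protein follistatin, was 1.99-fold higher (adjusted p = 1.23e-06). A second FST probe set rose by 1.04 on the log2 scale, while the remaining, dimmer one went from 3.80 to 3.99 (adjusted p = 0.144). BGN, biglycan, a small proteoglycan that binds TGF-beta, was 1.26-fold higher (adjusted p = 0.011). NOG (5.44 in both groups) and CHRD (6.16 and 6.17), whose secreted proteins bind bone morphogenetic proteins, were not called. The proteoglycan DCN (2.76 and 2.75) was not called either.

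Of 10 genes known to respond to TGF-beta in various cells, 5 rose and 1 fell, with a median log2 change of 0.19. VCAN, versican, was 9.52-fold higher (adjusted p = 2.94e-07) and CHST11, a chondroitin sulfotransferase, 3.62-fold (adjusted p = 3.04e-07). Their untreated log2 means were low, 3.50 and 3.49, and cannot be set against background, so the folds are uncertain. With the dimmest probe sets left out, CHST11 was not kept and 4 rises remained. SDC4, CHSY1 and BGN were the other rises, and VEGFA, vascular endothelial growth factor, was the fall, 1.89-fold lower. The list was drawn up with earlier results of these arrays known, so its direction is no independent evidence.

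**Figure D4:**
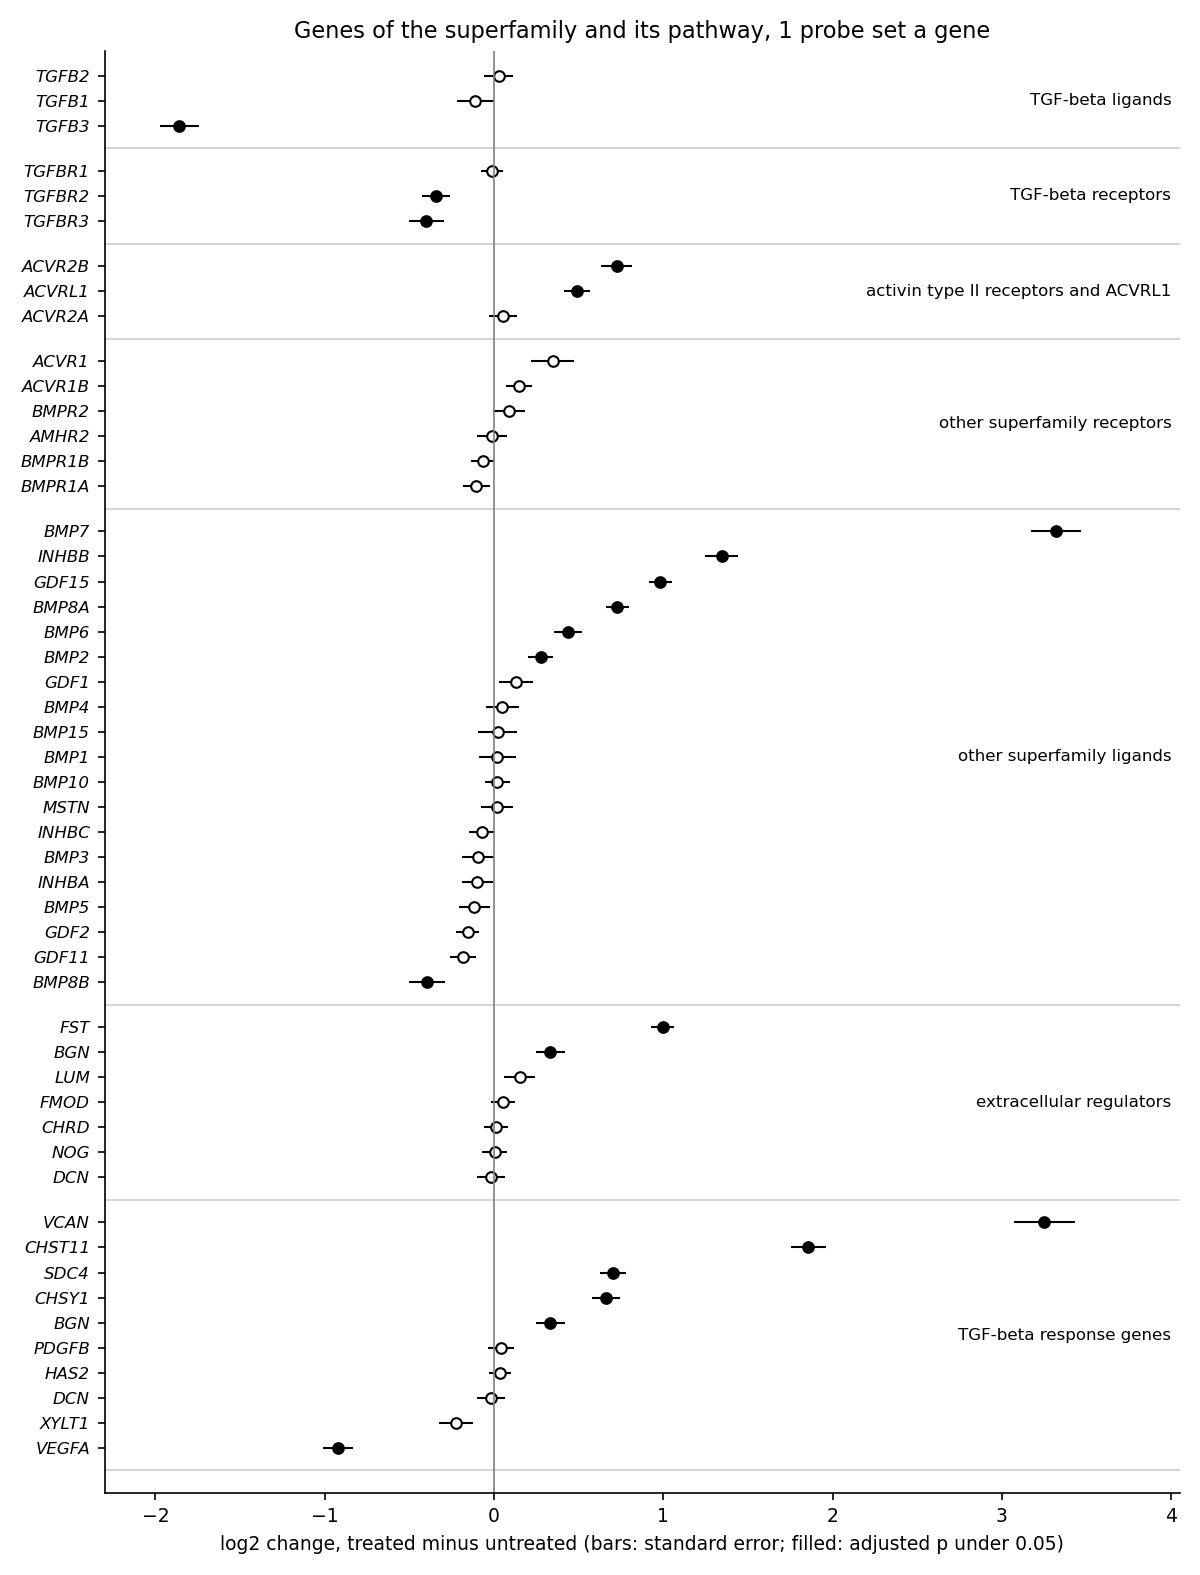
Log2 change (treated minus untreated) with its standard error for the measured genes of the members' groups and of the pathway lists. The list of SMAD proteins and receptor regulators is not drawn. Points are filled where limma's adjusted p was under 0.05. Of the receptors outside the members none is filled, and ACVR1 lies farthest from 0, at 0.35. The other ligands reach from -0.40 for BMP8B to 3.32 for BMP7.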

How the data were processed

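Total RNA was hybridized to Affymetrix arrays after biotin labelling, per the labels' protocols. The authors deposited log2 values, 1 column for each of 6 arrays. Per the submitters' processing notes they used RMA, with settings, platform and build not given in the sources used here. The log2 scale was inferred from the range of 2.13 to 13.67. Without detection calls a low value cannot be set against background, and the number of arrays limits precision. Columns left unused numbered 0.

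Probe sets were named through RefSeq transcripts (GRCh38.p14, names only): 1043 matched 1 symbol, and 216 stayed unnamed. Groups follow the treatment entry. In R 4.3.3, limma 3.58.1 (lmFit, eBayes, two-sided, Benjamini-Hochberg over 1259 probe sets) gave changes, standard errors and 95% intervals. The steps were tested on simulated data. Within-array differences were tested by exact permutation over arrays.

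The members and lists were chosen with earlier results of these data known. Named were all members, called genes of the other receptors and SMAD list, the 2 called genes with the smallest p of each other pathway list, and the 3 genes most like TGFB3. Others were chosen after their values were seen. Same-numbered arrays were not paired in the main test. Alternatives were quantile normalization, median centring, omission of the dimmest probe sets (840 kept), an intensity trend, array weights, a replicate block, an unmoderated model, thresholds of 0.01 and 0.10, and leaving out each array.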

Additional observations from a re-analysis of the deposited data

How the results depend on the processing

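Over 15 alternatives, TGFB3, ACVR2B and ACVRL1 kept their direction and passed in each, and TGFB1, TGFB2, TGFBR1 and ACVR2A passed in none (TGFB2 lies below the level kept when the dimmest probe sets were left out). Of the 5 members called, 3 were called in the unmoderated model, which lost TGFBR2 and TGFBR3. TGFBR3 was also lost at a threshold of 0.01, without untreated replicate 2 and with the replicate block, which left 4 members called (TGFBR3 adjusted p = 0.0502). Leaving out 1 array gave 4 to 5 members. Deviations of same-numbered arrays correlated at -0.27, 0.04 and -0.11, and 0 of 3 matched their own number best. No pairing by number was seen, though 3 arrays a group are too few to exclude one. The whole array had 438 calls, 51.8% of them rises. The calls ran from 330 to 508 over the alternatives, with 394 under the replicate block, and rises made up 38.8% after median centring. Of the 12 differences between genes, 9 did not overlap, against 7 after quantile normalization. With 1 array left out the count was 9 to 11, and 9 had the same sign in all 3 same-numbered pairs. Neither count could fall below 9, as separated groups stay separated without an array and differ in 1 direction in every pair. They are therefore no check of stability. Quantile normalization and median centring each gave 3 falls among the other ligands, against 0 with the replicate block and in the unmoderated model. With 3 arrays a group and no detection calls, small changes in dim probe sets such as TGFB2 are least certain.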
